A study of Rattus norvegicus with 6 samples.

Results

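Integrins are the heterodimeric receptors, each made of an alpha and a beta chain, through which cells hold on to the extracellular matrix, and focal adhesions are the protein assemblies that tie them to actin inside the cell. The set described here was a named list of 40 genes: 16 integrin chains, the laminin receptor dystroglycan, and 23 cytoplasmic components of adhesions. A gene was included with every probe set annotated to its symbol alone. This gave 73 probe sets for 37 genes, out of 31042 tested probe sets and 14217 named genes. Itga2, Itga4 and Itgb8 were not analysed here, since the annotation used here lists no probe set under those symbols.

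Expression was measured with Affymetrix arrays in Schwann cells, the glia of peripheral nerve, cultured from rat sciatic nerve. All cells carried an inducible RafER allele, a Raf kinase joined to an estrogen receptor domain so that tamoxifen switches the kinase on. The tamoxifen group had 3 arrays, from cells given tamoxifen for 24 h. The vehicle group had 3 arrays, from the same kind of cells given ethanol, and both groups grew on poly-L-lysine with fibronectin, itself an integrin ligand, and were moved from a medium with serum to a minimal medium before treatment. The series describes 3 independent experiments, numbered in the titles, while the source labels speak of treated rats, and p-values measure the spread between these samples. No arrays of cells lacking the allele were analysed, and for that reason effects of tamoxifen itself and of Raf cannot be told apart. The promoter that drives RafER and the number of clones or animals behind a culture are not given in the sources used here. In such bulk RNA, fewer cells of a type and less RNA per cell cannot be told apart.

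In peripheral nerve, integrins and dystroglycan bind laminins of the basal lamina that wraps each Schwann cell, and this contact is needed for sorting and myelinating axons. Beta1 integrins act early, in radial sorting, whereas the alpha6-beta4 pair and dystroglycan are typical of mature myelinating cells. Inside the cell, talin and kindlin bind the beta chain, integrin-linked kinase joins with PINCH and parvin, and vinculin, alpha-actinin and zyxin connect the complex to actin, while focal adhesion kinase, Src and paxillin pass on signals.

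Markers of the labelled cell type were bright on all arrays. S100b, a calcium-binding protein of Schwann cells, averaged 12.35 ± 0.45 on tamoxifen arrays and 13.11 ± 0.08 on vehicle arrays (log2 expression, mean ± SD, n = 3). Ngfr, the p75 receptor, averaged 11.46 ± 0.51 on tamoxifen arrays and 12.99 ± 0.49 on vehicle arrays, and the transcription factor Sox10 averaged 10.68 ± 0.20 on tamoxifen arrays and 11.59 ± 0.72 on vehicle arrays. Of 8 measured Schwann cell markers out of 11 listed, 0 rose and 2 fell (S100b and Ngfr; Sox10 passed when blocked by experiment, -0.90, adjusted p = 0.0300), and their mean level was 9.75 to 10.31 on tamoxifen arrays and 10.67 to 10.88 on vehicle arrays. Over the 11 fibroblast markers 3 rose (Fbln1, Pdgfra and Pi16) and 3 fell (Col1a1, Col1a2 and Col3a1), with a mean level of 7.44 to 7.55 on tamoxifen arrays and 7.48 to 7.60 on vehicle arrays. Of this same list, Postn, Col1a2 and Col1a1 were high in both groups, whereas Lum, Dcn, Thy1 and Dpt lay between 3.43 and 5.14 on average in either group. Between them, Col3a1 averaged 6.30 on tamoxifen arrays and 8.68 on vehicle arrays. Fbln1 had 7.78, 8.22 and 7.87 on tamoxifen arrays and 6.47, 6.35 and 6.24 on vehicle arrays. Macrophage markers (1 of 11 rose) averaged 4.84 to 4.96 and 4.74 to 4.75 on tamoxifen and vehicle arrays. Endothelial markers (1 of 7 fell) averaged 5.17 to 5.26 and 5.20 to 5.22, and smooth muscle and pericyte markers (0 of 9 changed) 5.86 to 6.28 and 5.88 to 6.37. Differences of single genes in these lists ranged, in turn, from -0.18 to 1.45, from -0.49 to 0.30 and from -1.10 to 0.39. Some genes were brighter than their list mean. Egfl7 of the endothelial list averaged 7.75 on tamoxifen arrays and 8.24 on vehicle arrays, and Tagln of the smooth muscle list 8.97 and 9.51. The lower quartile of all tested values was 4.82, the median 6.34 and the upper quartile 8.56, and with no detection calls a low value can be background. Of 5 genes listed for perineurial cells, Slc2a1 rose and Tjp1 and Itgb4 fell, and the tight junction gene Cldn1 averaged 5.08 on tamoxifen arrays and 4.88 on vehicle arrays. By these counts 25% of Schwann cell, 54.5% of fibroblast and 60% of perineurial markers changed. The share was 9.09% for macrophage, 14.3% for endothelial and 0% for smooth muscle and pericyte markers. Over all named genes it was 31.2%, and among those at or above the median probe set 43.8%. Several of these marker calls were lost with 1 array fewer, some of them without a smaller difference. S100b did not pass without any one array but tamoxifen array 3 (-0.89 to -0.73, adjusted p from 0.0514 to 0.116), Ngfr without tamoxifen array 2 (-1.54, adjusted p = 0.0551), and Pdgfra without tamoxifen array 2 (0.50, adjusted p = 0.0563). Pi16 did not pass without any one array (adjusted p from 0.0631 to 0.122), Col1a2 without any one but vehicle array 1 (0.0782 to 0.143), and Slc2a1 without tamoxifen array 2 or 3 or vehicle array 2 or 3 (0.0642 to 0.0788). Blocked by experiment, these 3 did not pass either, with an adjusted p of 0.0736 for Pi16, 0.0530 for Col1a2 and 0.0593 for Slc2a1. Tjp1 did not pass by the mean of all its probe sets (-0.24, adjusted p = 0.692). The part of other cell types in the results below was not tested. Signal from transcript 5′ ends was weak on vehicle array 1, where the 3′ minus 5′ difference was 0.84 log2 units over 3 control transcripts, against 0.16 to 0.27 on the other 5 arrays. Of the 73 probe sets it was the lowest of the 6 arrays on 20 and the highest on 18, where the other arrays were lowest on 5 to 15 and highest on 4 to 17.

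The brightest probe set by mean stood for each gene, and a gene passed when limma gave an adjusted p under 0.05 over all probe sets. After tamoxifen, 7 of the 37 genes were higher and 9 were lower, and 21 did not pass. The 2 largest rises were those of Itga8 and Parvb, and the 2 largest falls those of Lims2 and Itgb4. Over all named genes 13.9% were higher, 17.3% were lower and 31.2% passed in either direction, against 43.2% of the genes described here. These are bright transcripts, and only Itgb6 and Nedd9 lay below the median probe set. Among the 9008 named genes at or above it, 18.9% were higher, 24.9% were lower and 43.8% passed in either direction, so the share that passed is not a result about adhesion genes. Values of the 3 tamoxifen and 3 vehicle arrays did not overlap for 24 of the 37 genes, against 49.1% of all named genes. The share without overlap was not worked out for the brighter genes, so it is not read as a result about adhesion genes either. The median difference was -0.12 log2 units, tamoxifen minus vehicle, against 0.01 over all named genes. The number of lower genes was 5 without tamoxifen array 2 or without tamoxifen array 3. These counts leave out the pairing of arrays by experiment. With experiment as a block 20 genes passed, and 15 of these were among the 16. The block gained Dag1, Flna, Src and Tln1 as lower and Itgb3 as higher, and lost Actn1. The plot of differences by gene shows both rises and falls among the genes of the integrin-linked kinase complex and among the links to actin.

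**Figure D1:**
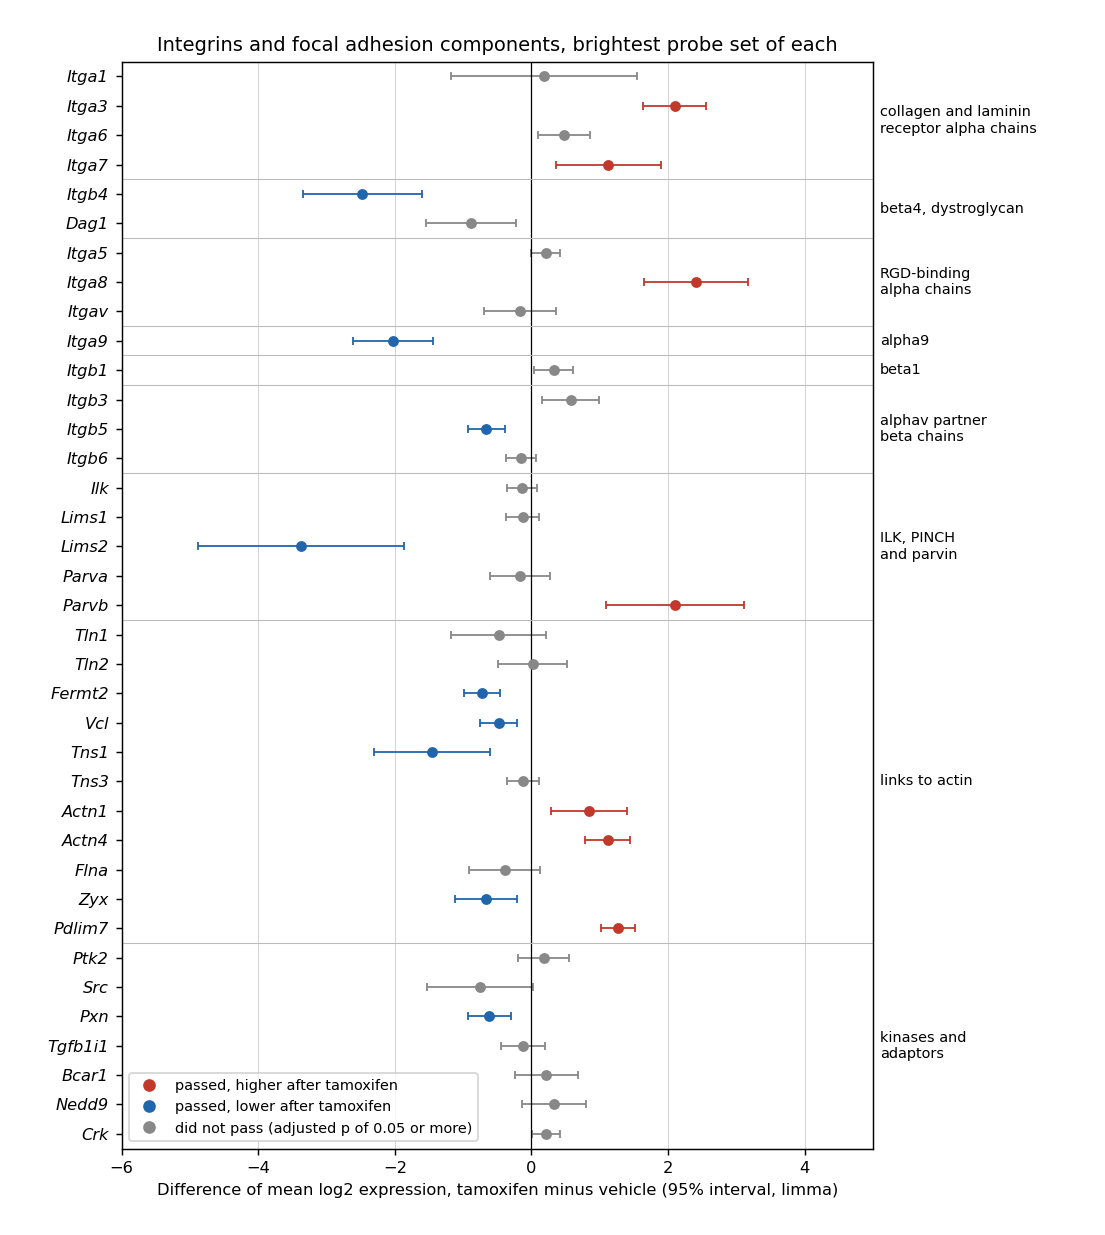
Difference of mean log2 expression (tamoxifen minus vehicle, horizontal axis) for the brightest probe set of each of the 37 measured genes, grouped by role, with 95% intervals from limma (n = 3 arrays per group). Red genes passed as higher, blue genes passed as lower and grey genes did not pass. Itga8 lies farthest to the right and Lims2 farthest to the left.

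**Figure D2:**
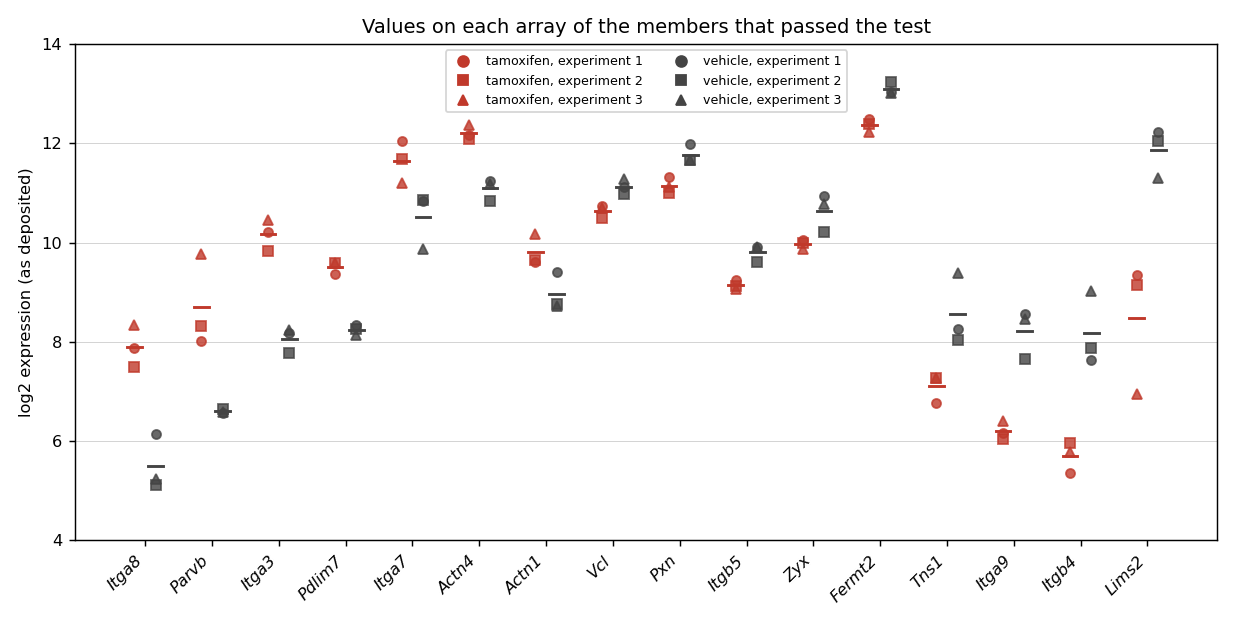
Deposited log2 expression of the 16 genes that passed, ordered from the largest rise to the largest fall, with tamoxifen arrays in red on the left of each pair and vehicle arrays in grey on the right. Each symbol is an array, its shape the experiment, and each bar a group mean. The groups do not overlap for any of the 16.

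Among the 4 measured alpha chains of the set that pair with beta1 to bind laminin or collagen, Itga3 and Itga7 rose and none fell. Itga11, a collagen receptor chain outside the set, is given further below. Itga3, a receptor chain for laminins, had 10.22, 9.82 and 10.45 on tamoxifen arrays, against 8.18, 7.78 and 8.24 on vehicle arrays. All tamoxifen values were above all vehicle values, and the rise was 2.10 ± 0.20 log2 units (SE, adjusted p = 0.000999), or 4.28-fold. Itga7, another laminin receptor chain, had 12.05, 11.68 and 11.21 on tamoxifen arrays and 10.84, 10.85 and 9.87 on vehicle arrays. Its rise was 1.13 ± 0.32 (adjusted p = 0.0459), its probe set of nearly equal brightness gave 1.28 (adjusted p = 0.0254), and its dimmest probe set gave 0.37 (adjusted p = 0.0962; blocked by experiment, adjusted p = 0.0392). Itga7 no longer passed without tamoxifen array 1 (0.93, adjusted p = 0.129) or 2 (1.11, adjusted p = 0.127), and without vehicle array 2 (1.29, adjusted p = 0.0582) or 3 (0.80, adjusted p = 0.0733). The second probe set did not pass without tamoxifen array 1 or 2 or vehicle array 3 (1.04, 1.28 and 1.02, adjusted p = 0.0689, 0.0801 and 0.0566).

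Itga6, whose product joins either beta1 or beta4, was bright in both groups, at 12.98, 12.48 and 12.57 on tamoxifen arrays and 12.07, 12.12 and 12.40 on vehicle arrays. The groups did not overlap, but the difference of 0.48 ± 0.16 by this probe set did not pass (adjusted p = 0.0755). Of its 3 other probe sets, 2 passed as higher, with differences of 1.07 (adjusted p = 0.0326) and 0.45 (adjusted p = 0.00895). On the first of these the vehicle array with weak 5′ signal read 9.88, against 10.59 and 10.96 on the other vehicle arrays, and the differences within experiments 1, 2 and 3 were 1.92, 0.73 and 0.57. It passed without that array (0.77, adjusted p = 0.0283) but not without tamoxifen array 1, 2 or 3 (0.95, 1.19 and 1.08, adjusted p = 0.0992, 0.0644 and 0.0891), nor when vehicle array 2 was left out (1.13, adjusted p = 0.0681). The difference of 0.45 passed without each array in turn (adjusted p from 0.0178 to 0.0315). The remaining probe set gave 1.31 (adjusted p = 0.0595), with 9.01 on the weak vehicle array, against 10.43 and 10.62 on the other vehicle arrays, and passed without vehicle array 1 (0.81, adjusted p = 0.0119) or 3 (1.61, adjusted p = 0.0413). Itga1, a collagen and laminin receptor chain, varied widely among arrays, with 6.59, 6.41 and 8.33 after tamoxifen and 6.12, 7.22 and 7.44 after vehicle. Its difference of 0.18 ± 0.57 had a 95% interval of -1.18 to 1.55, so a change within it was not detectable here.

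Of the receptors typical of myelinating cells, Itgb4 fell, and Dag1 passed as lower when blocked by experiment but not without the block. Itgb4, the beta chain that pairs with alpha6 alone, had 5.36, 5.97 and 5.79 on tamoxifen arrays, against 7.63, 7.88 and 9.02 on vehicle arrays. It fell by 2.47 ± 0.37 log2 units (adjusted p = 0.00447), a 5.55-fold lower level, and its tamoxifen values lay below the median of all probe sets. Dag1, which encodes both dystroglycan subunits, had 12.34, 11.67 and 11.79 on tamoxifen arrays and 13.35, 12.42 and 12.68 on vehicle arrays. Within each experiment the tamoxifen array was lower, and the difference was -0.88 ± 0.28 (adjusted p = 0.0615; blocked by experiment, adjusted p = 0.00379). It also passed without tamoxifen array 1 (-1.09, adjusted p = 0.0481) or vehicle array 2 (-1.08, adjusted p = 0.0478). The other Dag1 probe sets gave -0.56, -0.07 and 0.36, none of which passed, though the first did when blocked by experiment (adjusted p = 0.0205) or without tamoxifen array 1 (-0.75, adjusted p = 0.0132). On the last of these the weak vehicle array read 6.98, against 9.39 and 8.95 on the other vehicle arrays.

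Among the chains that recognise the RGD sequence of fibronectin and related ligands, 1 of 3 alpha chains rose. Itga8, whose partner is beta1 and whose ligands include fibronectin and nephronectin, had 7.87, 7.50 and 8.34 on tamoxifen arrays, against 6.14, 5.12 and 5.23 on vehicle arrays. The rise was 2.41 ± 0.32 (adjusted p = 0.00312), or 5.30-fold, and the other Itga8 probe set gave 2.30 ± 0.23 (adjusted p = 0.00123). All vehicle values of both probe sets lay below the median of all values, where RMA values tend to be compressed. Itga5, the classical fibronectin receptor chain, had 6.76 to 6.90 after tamoxifen and 6.52 to 6.68 after vehicle. The groups did not overlap, yet the difference of 0.21 ± 0.09 did not pass (adjusted p = 0.139). Itgav, the vitronectin receptor chain, gave -0.16 ± 0.22 (adjusted p = 0.654), with a 95% interval of -0.69 to 0.36, and its other probe sets gave 0.23 and 0.25 without passing, the second of them reaching 0.56 (adjusted p = 0.0360) without vehicle array 2.

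Of the measured beta chains that pair with alphav, Itgb5 fell and Itgb3 and Itgb6 did not pass. Itgb5 had 9.24, 9.13 and 9.06 on tamoxifen arrays and 9.90, 9.60 and 9.90 on vehicle arrays, and fell by 0.66 ± 0.11 (adjusted p = 0.00798). Its dimmer probe set fell by 1.06 ± 0.11 (adjusted p = 0.00127), and its dimmest one gave -0.06 (adjusted p = 0.755). Itgb3 had 9.80, 9.45 and 9.44 on tamoxifen arrays and 9.30, 8.93 and 8.72 on vehicle arrays. No tamoxifen value was below a vehicle value, and the difference of 0.58 ± 0.17 missed the threshold (adjusted p = 0.0550; blocked by experiment, adjusted p = 0.0115; 0.74, adjusted p = 0.0178, without vehicle array 1). Itgb6, an epithelial chain, lay below the lower quartile of all values, at 3.61 to 3.79 on tamoxifen arrays and 3.79 to 3.94 on vehicle arrays.

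Itgb1, the partner of most of these alpha chains, had 12.71, 12.58 and 12.64 after tamoxifen and 12.10, 12.37 and 12.49 after vehicle. Its difference was 0.32 ± 0.12 (adjusted p = 0.0959) by the brighter probe set. The dimmer one gave 0.63 ± 0.18 and passed (adjusted p = 0.0479), with the weak vehicle array lowest on both. This dimmer probe set passed without that array (0.41, adjusted p = 0.0249) but not without any 1 tamoxifen array (0.61 to 0.66, adjusted p from 0.107 to 0.130), nor when vehicle array 2 was left out (0.72, adjusted p = 0.0598). Itga9, which pairs with beta1 to bind tenascin-C and osteopontin, had 6.16, 6.05 and 6.40 on tamoxifen arrays and 8.56, 7.66 and 8.45 on vehicle arrays. It fell by 2.02 ± 0.24 (adjusted p = 0.00231), or 4.07-fold, while its dim probe set, below the lower quartile, gave -0.06 (adjusted p = 0.608).

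Lims2 fell and Parvb rose within the complex of integrin-linked kinase, PINCH and parvin, which sits on the beta1 tail and links it to actin. Each PINCH and each parvin has a paralog that competes for the same place in the complex. Ilk, the scaffold of the complex, had 12.15, 12.21 and 11.98 on tamoxifen arrays and 12.27, 12.25 and 12.24 on vehicle arrays. The groups did not overlap, but the difference of -0.14 ± 0.09 did not pass (adjusted p = 0.322), and its 95% interval was -0.36 to 0.07. Lims1, which encodes PINCH1, had 10.95, 11.03 and 10.93 after tamoxifen and 10.94, 11.10 and 11.23 after vehicle, a difference of -0.12 ± 0.10 (adjusted p = 0.444) and 0.06 by the dimmer probe set. Lims2, which encodes PINCH2, had 9.34, 9.14 and 6.95 on tamoxifen arrays, against 12.22, 12.05 and 11.30 on vehicle arrays. It fell by 3.37 ± 0.63 log2 units (adjusted p = 0.0104), or 10.4-fold, by its only probe set. Tamoxifen array 3 was the lowest, and leaving out an array gave -3.81 to -2.61.

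Parva, or alpha-parvin, gave -0.17 ± 0.18 (adjusted p = 0.565) and 0.28 (adjusted p = 0.574) by its probe sets. Parvb, or beta-parvin, had 8.02, 8.33 and 9.78 on tamoxifen arrays and 6.57, 6.65 and 6.59 on vehicle arrays by its brightest probe set, a rise of 2.10 ± 0.42 (adjusted p = 0.0134). Another probe set had 8.89, 8.82 and 10.31 after tamoxifen, against 5.04, 4.91 and 5.42 after vehicle, and rose by 4.21 ± 0.40 (adjusted p = 0.00105). The dimmest rose by 1.29 ± 0.38 (adjusted p = 0.0488), and did not pass without any one array but tamoxifen array 3 (1.18 to 1.53, adjusted p from 0.0566 to 0.106). On all of them tamoxifen array 3 was highest, the same array on which Lims2 was lowest. As the plot of every probe set of the complex shows, Lims2 and Parvb were the genes of it that passed.

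**Figure D3:**
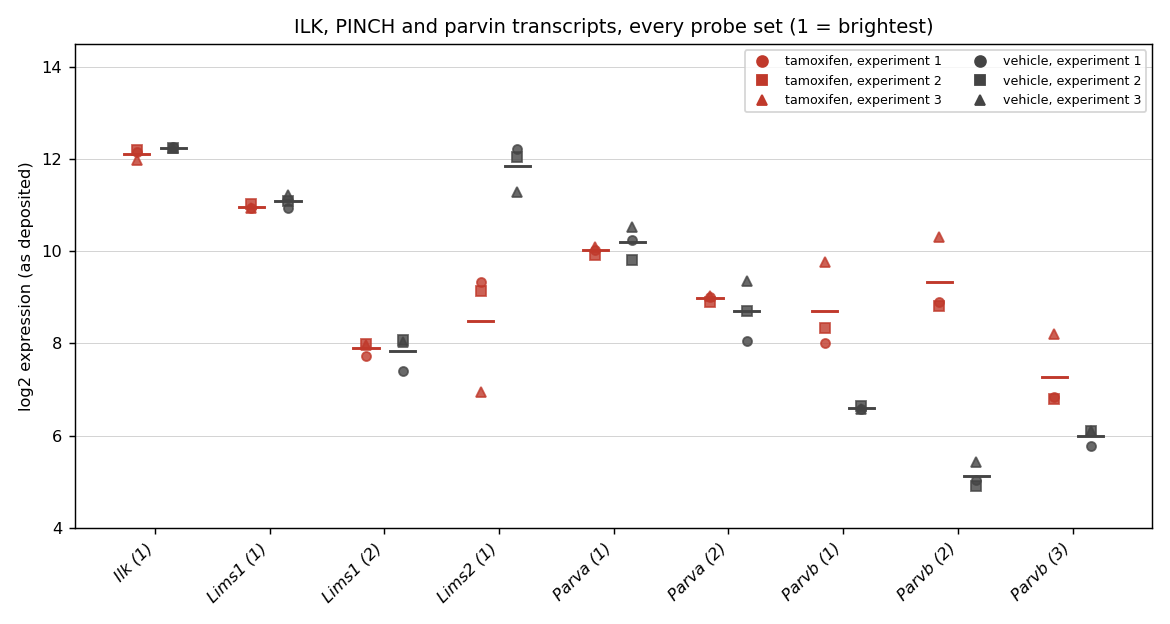
Deposited log2 expression on each array for every probe set of Ilk, Lims1, Lims2, Parva and Parvb, numbered from the brightest, with tamoxifen arrays in red on the left and vehicle arrays in grey on the right. Symbol shape gives the experiment and bars are group means. Tamoxifen values of Lims2 lie below and those of Parvb above all vehicle values, while mean differences of the probe sets of Ilk, Lims1 and Parva lie between -0.17 and 0.28.

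The difference between paralogs was compared within each array for 7 pairs. The log2 value of Lims2 minus that of Lims1 differed by -3.25 ± 0.83 (SE) between tamoxifen and vehicle arrays, and Parvb minus Parva was 2.28 ± 0.56 higher on tamoxifen arrays. Tns3 minus Tns1 was 1.33 ± 0.51 higher and Tgfb1i1 minus Pxn 0.50 ± 0.11 higher. For these 4 pairs the groups did not overlap, and an exact two-sided permutation test gave p = 0.1, the smallest that 3 against 3 arrays allow (0.175 adjusted over the 7 pairs). The other pairs, Tln2 and Tln1 (0.49 ± 0.39), Actn4 and Actn1 (0.27 ± 0.21) and Nedd9 and Bcar1 (0.11 ± 0.20), had overlapping groups with exact p from 0.3 to 0.7. Within experiments 1, 2 and 3, Tln2 minus Tln1 was 0.85, 0.40 and 0.24 higher after tamoxifen, Actn4 minus Actn1 differed by 0.73, 0.34 and -0.25, and Nedd9 minus Bcar1 by 0.053, -0.0021 and 0.27. The 4 pairs whose groups did not overlap, and Tln2 and Tln1, had 1 sign in all 3 experiments. An exact two-sided sign-flip test over the 3 experiments, added after the data were seen, gave p = 0.25 for these 5 pairs, the smallest it allows, and p = 0.5 for the other 2.

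The RefSeq promoter windows of Lims2 and Parvb, the genes of that complex with the largest changes, and of Itga3, the most changed laminin receptor alpha chain, are printed 5′ to 3′ as 250 bases before and 50 bases after each annotated start in build GRCr8. Capitals mark a match to the TEAD core motif GGAATG on either strand, TEAD factors being partners of the adhesion-sensitive coactivator YAP. Lims2 has a pair of annotated starts, at chr18:23827914-23828213 and chr18:23837454-23837753 (plus strand), Parvb is at chr7:117239988-117240287 (plus strand) and Itga3 at chr10:80518852-80519151 (minus strand).
Lims2 start 1: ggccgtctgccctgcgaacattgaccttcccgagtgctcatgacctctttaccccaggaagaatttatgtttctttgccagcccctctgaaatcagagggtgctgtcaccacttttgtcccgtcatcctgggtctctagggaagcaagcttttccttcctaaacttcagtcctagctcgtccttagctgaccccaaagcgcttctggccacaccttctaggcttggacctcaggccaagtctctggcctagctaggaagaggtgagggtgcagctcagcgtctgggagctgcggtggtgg
Lims2 start 2: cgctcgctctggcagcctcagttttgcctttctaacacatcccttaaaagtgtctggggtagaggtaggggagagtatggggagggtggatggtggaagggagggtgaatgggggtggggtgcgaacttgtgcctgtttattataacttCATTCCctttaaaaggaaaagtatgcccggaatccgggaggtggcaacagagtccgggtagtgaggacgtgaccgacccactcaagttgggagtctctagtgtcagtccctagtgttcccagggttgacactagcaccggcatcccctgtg
Parvb: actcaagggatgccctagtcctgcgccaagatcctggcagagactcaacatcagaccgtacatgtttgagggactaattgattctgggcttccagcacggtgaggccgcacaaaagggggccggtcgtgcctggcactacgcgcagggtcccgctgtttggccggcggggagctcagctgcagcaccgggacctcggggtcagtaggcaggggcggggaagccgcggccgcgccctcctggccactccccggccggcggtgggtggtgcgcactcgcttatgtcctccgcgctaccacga
Itga3: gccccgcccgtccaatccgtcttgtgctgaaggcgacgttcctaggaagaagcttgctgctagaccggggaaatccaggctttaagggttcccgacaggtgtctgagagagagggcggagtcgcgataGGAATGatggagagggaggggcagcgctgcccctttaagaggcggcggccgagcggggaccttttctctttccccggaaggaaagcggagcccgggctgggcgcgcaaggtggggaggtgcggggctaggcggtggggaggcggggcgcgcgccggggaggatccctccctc
The motif starts at base -101 of the downstream Lims2 start, on the opposite strand, and at base -122 of Itga3, and these 2 genes changed in opposite directions. Windows were found for 30 of the 40 genes, 35 windows in all, and 8 of them held GGAATG on either strand, against 14.2% of 33469 windows. The 8 genes were Flna, Itga3, Itga4, Itgb1, Itgb8, Lims2, Vcl and Zyx. The AP-1 motif TGANTCA, which reads the same on both strands, was in 0 of the 35 windows and 7.33% of all windows, and the SRF motif known as the CArG box was in 1, that of Itgb6, and 1.64% of all windows. A match describes only the letters of the window, and no window of these genes held more than 1 of the 3 motifs.

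Of the 11 genes that connect integrins with actin, 3 rose, 4 fell and 4 did not pass. The share that passed was 63.6%, beside 31.2% of all named genes and 43.8% of those at or above the median probe set. Fermt2, or kindlin-2, which binds the beta tail beside talin, had 12.49, 12.39 and 12.23 on tamoxifen arrays and 13.02, 13.23 and 13.02 on vehicle arrays. The groups did not overlap, and it fell by 0.72 ± 0.11 (adjusted p = 0.00475). Its dimmer probe sets gave -0.46 and -0.22, which did not pass, and on the first of these the weak vehicle array read 9.55, against 11.01 and 10.86 (-0.92, adjusted p = 0.00358, without it). Vcl, encoding vinculin, which reinforces the link to actin under force, had 10.73, 10.50 and 10.70 on tamoxifen arrays and 11.12, 10.98 and 11.28 on vehicle arrays. It fell by 0.48 ± 0.11 (adjusted p = 0.0242), with -0.56 (adjusted p = 0.0556) and -0.17 by its other probe sets, both of which passed without vehicle array 1 (-0.70 and -0.49, adjusted p = 0.0221 and 0.0341). Vcl did not pass without tamoxifen array 2 (-0.41, adjusted p = 0.0822) or 3 (-0.51, adjusted p = 0.0577) and without vehicle array 3 (-0.40, adjusted p = 0.0672).

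Tns1, encoding the actin-binding tensin-1, had 6.77, 7.28 and 7.28 on tamoxifen arrays and 8.26, 8.03 and 9.40 on vehicle arrays, and fell by 1.46 ± 0.36 (adjusted p = 0.0271). It did not pass without tamoxifen array 1 (-1.29, adjusted p = 0.0859), 2 (-1.54, adjusted p = 0.0695) or 3 (-1.54, adjusted p = 0.0658). The other Tns1 probe set gave -0.56 ± 0.24 with overlapping groups and did not pass (adjusted p = 0.144), except without vehicle array 2 (-0.79, adjusted p = 0.0378). Tns3, its bright paralog, had 12.51, 12.31 and 12.26 after tamoxifen and 12.57, 12.47 and 12.42 after vehicle, a difference of -0.13 ± 0.10 (adjusted p = 0.431). Zyx, encoding the stress fibre protein zyxin, had 10.06, 9.99 and 9.88 on tamoxifen arrays and 10.93, 10.20 and 10.77 on vehicle arrays, and fell by 0.66 ± 0.19 (adjusted p = 0.0467). Its adjusted p was 0.0922, 0.120 and 0.137 without tamoxifen array 1, 2 or 3 (-0.70, -0.67 and -0.61), and 0.0938 and 0.123 without vehicle array 1 or 3 (-0.51 and -0.59).

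Actn4 and Pdlim7 rose, and Actn1, the other gene of an alpha-actinin, a crosslinker of actin, rose by 1 of its 2 probe sets. Actn4, encoding alpha-actinin-4, had 12.18, 12.08 and 12.37 on tamoxifen arrays, against 11.25, 10.85 and 11.18 on vehicle arrays, a rise of 1.12 ± 0.14 (adjusted p = 0.00248). Pdlim7, which binds alpha-actinin through its PDZ domain, had 9.36, 9.59 and 9.59 on tamoxifen arrays and 8.34, 8.26 and 8.14 on vehicle arrays. It rose by 1.27 ± 0.10 (adjusted p = 0.000696), and by 1.12 ± 0.21 (adjusted p = 0.0111) by the other probe set. Actn1, encoding alpha-actinin-1, had 9.61, 9.65 and 10.18 on tamoxifen arrays and 9.41, 8.76 and 8.73 on vehicle arrays, a rise of 0.85 ± 0.23 (adjusted p = 0.0407; blocked by experiment, adjusted p = 0.0570). It did not pass without tamoxifen array 1, 2 or 3 (0.95, 0.93 and 0.66, adjusted p = 0.0636, 0.0812 and 0.113) and without vehicle array 2 or 3 (0.74 and 0.73, adjusted p = 0.115 and 0.111). Without tamoxifen array 1 or 2 Actn1 lost its call although its difference was larger than with all arrays. Its other probe set gave 0.62 ± 0.23 with overlapping groups and did not pass (adjusted p = 0.10), except without vehicle array 1 (0.87, adjusted p = 0.00982).

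Tln1, encoding the talin that activates integrins, had 11.50, 10.67 and 11.16 after tamoxifen and 12.10, 11.15 and 11.52 after vehicle. The groups overlapped, but in each experiment the tamoxifen array was lower, and the difference of -0.48 ± 0.29 (adjusted p = 0.300) passed when blocked by experiment (adjusted p = 0.0206). The same was seen for Flna, the actin crosslinker filamin A, at -0.39 ± 0.22 (adjusted p = 0.253; blocked by experiment, adjusted p = 0.0352). Within experiments 1, 2 and 3 they were -0.60, -0.48 and -0.36 for Tln1 and -0.43, -0.27 and -0.48 for Flna. Without blocking, both differences were smallest without vehicle array 1 (-0.22 for Tln1 and -0.23 for Flna) or tamoxifen array 2 (-0.26 for each). Over single arrays left out they ranged from -0.70 to -0.22 and from -0.59 to -0.23. Tln2 gave 0.02 ± 0.21 (adjusted p = 0.967).

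Of the 7 kinases and adaptors, Pxn fell and 6 did not pass. The share that passed was 14.3%, beside 31.2% of all named genes and 43.8% of those at or above the median probe set. Pxn, encoding the docking protein paxillin, had 11.33, 11.01 and 11.11 on tamoxifen arrays and 11.98, 11.66 and 11.66 on vehicle arrays, and fell by 0.62 ± 0.13 (adjusted p = 0.0167). Without tamoxifen array 2 or 3 the adjusted p was 0.0630 and 0.0574 (-0.55 and -0.60). Tgfb1i1, its paralog Hic-5, gave -0.12 ± 0.13 (adjusted p = 0.597). Ptk2, encoding focal adhesion kinase, had 9.99, 9.85 and 9.71 after tamoxifen and 9.91, 9.73 and 9.36 after vehicle, a difference of 0.18 ± 0.16 (adjusted p = 0.465) with a 95% interval of -0.19 to 0.56. Src had 9.39, 9.06 and 9.06 on tamoxifen arrays and 10.71, 9.44 and 9.62 on vehicle arrays, a difference of -0.75 ± 0.33 (adjusted p = 0.152; blocked by experiment, adjusted p = 0.0464). On leaving out single arrays the difference of Src ranged from -0.99 to -0.36, the last of these without vehicle array 1 (adjusted p = 0.129). Its 3 other probe sets gave -0.58 (adjusted p = 0.134; blocked by experiment, adjusted p = 0.0229), -0.07 and 0.10, none of which passed, and the mean of all 4 gave -0.33. The adaptors of the CAS family, Bcar1 (p130Cas) and Nedd9, gave 0.22 ± 0.19 (adjusted p = 0.477; 0.44, adjusted p = 0.0348, without vehicle array 1) and 0.33 ± 0.20 (adjusted p = 0.293). Crk, which binds them, gave 0.21, -0.39 and 0.76 by its probe sets, none past the threshold (-0.39 passed when blocked by experiment, adjusted p = 0.0355).

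The matrix ligands of these receptors were also measured. Of 27 measured out of 30 listed, 2 rose and 9 fell, a median difference of -0.46. The share that passed was 40.7%, between the 31.2% of all named genes and the 43.8% of the brighter ones, and 33.3% of the list fell, against 17.3% and 24.9% in those sets. Without tamoxifen array 2 only 4 fell, and without vehicle array 3 only 5. Nid2, a basal lamina linker of laminin and collagen IV, had 7.92, 8.18 and 8.07 on tamoxifen arrays and 10.83, 10.58 and 11.17 on vehicle arrays, and fell by 2.81 ± 0.16 (adjusted p = 0.000216). Its relative Nid1 fell by 1.56 ± 0.19 by its brighter probe set, and the other one (-0.64) did not pass. Col3a1 fell by 2.38 ± 0.53, not passing without tamoxifen array 2 (-2.13, adjusted p = 0.0702). Tgfb1, whose latent form is held by alphav integrins, rose by 2.14 ± 0.20, and the integrin ligand gene Spp1, encoding osteopontin, rose by 1.09 ± 0.16 to an average of 7.12 on tamoxifen arrays, against 6.03 on vehicle arrays.

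Laminin-211, the main laminin of the Schwann cell basal lamina, is built from the Lama2, Lamb1 and Lamc1 chains. Lama2 had 9.63, 8.86 and 10.34 on tamoxifen arrays and 11.08, 10.58 and 12.47 on vehicle arrays. In every experiment the tamoxifen array was lower, and the difference of -1.76 ± 0.55 (adjusted p = 0.0605) passed when blocked by experiment (adjusted p = 0.00201) and without vehicle array 2 (-2.16, adjusted p = 0.0468). Lamb1 fell by 1.13 ± 0.31 (adjusted p = 0.0418), and did not pass without tamoxifen array 1 or 2 (-1.16 and -0.87, adjusted p = 0.0965 and 0.115) or vehicle array 1 or 3 (-1.12 and -0.90, adjusted p = 0.0811 and 0.103). Lamc1 gave 0.22 ± 0.38 (adjusted p = 0.734). Lama4 gave 0.44 ± 0.27 (adjusted p = 0.297; 0.75, adjusted p = 0.0268, without vehicle array 3). Fn1, encoding fibronectin, gave -0.72 ± 0.58 (adjusted p = 0.439; blocked by experiment, adjusted p = 0.0268). Within experiments 1, 2 and 3 the difference of Fn1 was -0.31, -0.83 and -1.02. Leaving out an array without blocking splits its experiment, and gave from -1.16 without tamoxifen array 3 to -0.13 without vehicle array 3 (adjusted p = 0.884). Tnc, a ligand of alpha9 integrin, gave -0.22 ± 0.14 (adjusted p = 0.301), and Vtn averaged 4.90 on tamoxifen arrays and 4.74 on vehicle arrays.

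Genes of the complex around dystroglycan fell in 5 of 12 measured cases, out of 22 listed, and 0 rose by their brightest probe set. The share that passed was 41.7%, between the 31.2% of all named genes and the 43.8% of the brighter ones. All of these fell, so 41.7% of the list was lower, against 17.3% and 24.9% in those sets. Sspn, encoding the membrane protein sarcospan, had 8.85, 8.89 and 7.31 on tamoxifen arrays, against 10.96, 10.76 and 10.63 on vehicle arrays, and fell by 2.43 ± 0.42 (adjusted p = 0.00741). Of its 4 other probe sets 1 passed (-1.93), and the others gave -1.21, -1.32 and 0.23. The sarcoglycan genes Sgcb and Sgca fell by 1.48 ± 0.24 and fell by 1.33 ± 0.18, and Pomgnt1, an enzyme that glycosylates dystroglycan, fell by 0.70 ± 0.11. Dtna, encoding the dystrophin-binding protein alpha-dystrobrevin, had 8.64, 8.63 and 8.16 on tamoxifen arrays, against 7.72, 6.93 and 5.43 on vehicle arrays. All its tamoxifen values were above all vehicle values, and the difference of 1.78 ± 0.54 missed the threshold (adjusted p = 0.0544), passing when blocked by experiment (adjusted p = 0.0167), without vehicle array 1 (2.29, adjusted p = 0.0144) or 3 (1.15, adjusted p = 0.0360). The other probe sets of Dtna rose by 1.21 ± 0.19 (adjusted p = 0.00551) and by 0.68 ± 0.16 (adjusted p = 0.0217), the second not passing without tamoxifen array 1 or 3 or vehicle array 3 (0.56, 0.72 and 0.55, adjusted p = 0.0586, 0.0550 and 0.0504). The median difference of this list was -0.62.

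**Figure D4:**
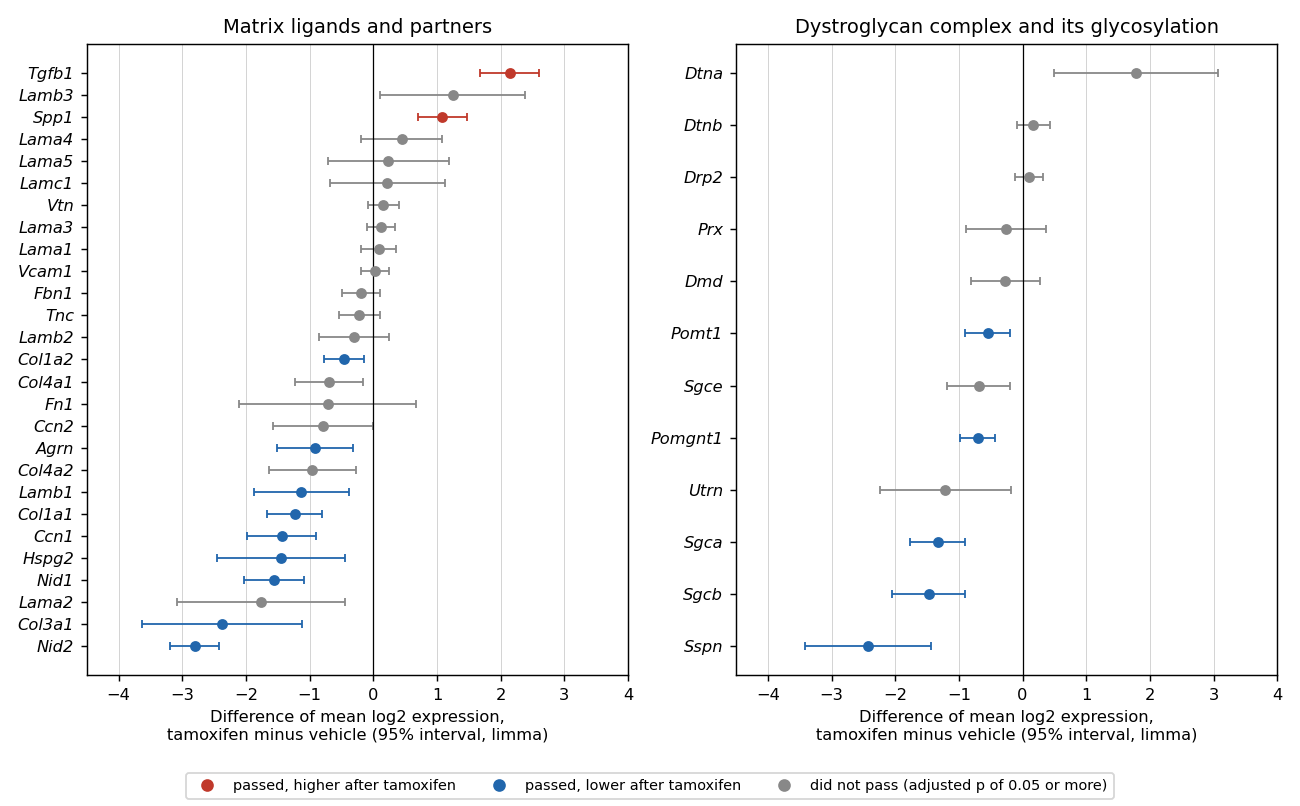
Difference of mean log2 expression (tamoxifen minus vehicle, horizontal axes) with 95% intervals from limma for the 27 measured matrix ligands and partners (left) and the 12 measured genes of the dystroglycan complex (right), each sorted by its difference. Red and blue genes passed as higher and lower. Nid2 and Sspn are the lowest of the left and right panels.

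Of 69 measured other adhesion genes, 12 rose and 10 fell, with a median difference of -0.05. The 31.9% that passed lay near the 31.2% of all named genes and below the 43.8% of the brighter ones. Pak1, a kinase downstream of Rac, fell by 2.68 ± 0.23, the filamin gene Flnc fell by 2.42 ± 0.27, and Kank2, which binds talin, fell by 2.12 ± 0.29, each with every other probe set also lower. Sh3kbp1, encoding the adaptor CIN85, rose by 1.92 ± 0.09 and by 2.13 by its other probe set. Among 23 genes of the actomyosin cytoskeleton 3 rose and 1 fell, 17.4% in all, against the same 31.2% and 43.8%. Capg, an actin filament capping protein, rose by 2.59 ± 0.21, profilin-1 (Pfn1) by 0.99 ± 0.13 and Tpm3 by 0.93 ± 0.08. The 11 other probe sets of Tpm3 gave 0.32 to 1.65, and several, by their suffix, can also match other transcripts. Mrtfa, a coactivator of SRF, fell by 0.81 ± 0.23 (adjusted p = 0.0434), and did not pass without tamoxifen array 1, 2 or 3 (adjusted p = 0.0895, 0.139 and 0.0825) and without vehicle array 3 (0.0682), with values of -0.89 to -0.69. Srf itself gave -0.38 ± 0.15 (adjusted p = 0.111; blocked by experiment, adjusted p = 0.0486).

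Of 12 measured other integrin subunits and integrin-binding proteins 1 rose and 1 fell, 16.7% in all, against 31.2% of all named genes. The leukocyte chain Itgb2 rose by 0.44 ± 0.10, at 4.76 and 4.32 on tamoxifen and vehicle arrays. The collagen receptor chain Itga11 fell by 0.37 ± 0.10, at 4.10 on tamoxifen arrays and 4.47 on vehicle arrays. Both lay below the lower quartile of all values, and both calls were lost on leaving out single arrays, tamoxifen array 2 or 3 or vehicle array 2 for Itgb2 (adjusted p = 0.0614, 0.0607 and 0.0614), and each but vehicle array 3 for Itga11 (adjusted p from 0.0752 to 0.112).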

How the data were processed

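RNA was measured on 6 arrays, 3 after tamoxifen and 3 after vehicle. The authors deposited log2 expression values for each probe set, from 2.99 to 14.58. RMA (background correction, quantile normalization and probe summary) is the tool given by the submitters' processing notes; the sources used here give no version. Such values compress differences of dim genes, and no detection calls were used. The number of arrays limits the precision.

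After 57 manufacturer controls were left out, 31042 probe sets were compared by limma 3.58.1 (lmFit, then eBayes) under R 4.3.3, two-sided, tamoxifen minus vehicle, without covariates, with Benjamini-Hochberg adjustment over all of them and a threshold of 0.05. Errors of differences are standard errors of that model. Names came from the platform annotation: 20826 probe sets had 1 symbol, 436 had several and were not named, and 9780 had none. Of those with 1 symbol, 20758 matched RefSeq (GRCr8) by Entrez identifier, and 0 symbols changed. Lists were described by counts, with no list test. Promoter sequences came from RefSeq.

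The members, lists, pairs and alternatives were chosen with earlier results of these data known. Named are all measured members, up to 4 passing genes of largest change from each list, 8 fixed genes and the 3 brightest markers of Schwann cells and fibroblasts, with those of the other cell types given as list means. Lamb1, Dtna, the other probe sets of list genes and some markers were chosen after their values were seen. Genes correlated with a member were not sought out, since the arrays fall into 2 groups.

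Correlations between other experiment numbers were below 0, which adds little, since deviations from a group mean sum to 0 within the group. Deviations from the group means correlated at 0.26, 0.20 and 0.28 between arrays of the same experiment number, so the numbers were taken as pairing the arrays. The main model left this pairing out, and a model blocked by experiment was an alternative. Others left out each array or both arrays numbered 1, rescaled the arrays, filtered dim probe sets, or changed the variance model, array weights or probe set of a gene. Fits without a single array were not blocked, so they split its experiment and differences between experiments entered the result. On simulated data of this comparison with 200 of 31042 probe sets changed, 10.4% of changes of 0.5 log2 units were recovered, 64.8% of 1, 89.6% of 2 and 98.4% of 4, and 4.67% of calls were false. In the real data 3574 probe sets passed as higher and 4004 as lower. With only 200 changed the adjustment is stricter, so these shares do not give the recovery in the real comparison.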

Additional observations from a re-analysis of the deposited data

How the results depend on the processing

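Of the 16 genes that passed, 9 kept their call under all 16 alternatives that were run: Itga3, Itga8, Itga9, Itgb4, Itgb5, Lims2, Parvb, Actn4 and Pdlim7. The other 7 (Itga7, Fermt2, Vcl, Tns1, Actn1, Zyx and Pxn) lost it under at least 1, and 7 further genes gained a call under at least 1. Leaving out single arrays gave 5 to 9 higher and 5 to 10 lower genes, and 2427 to 3424 higher and 2668 to 3771 lower probe sets, against 3574 and 4004 with all arrays. With the replicate block 7 genes were higher and 13 lower. The block changed no other call than those given as blocked by experiment in the text, over the genes named by their brightest probe set and the other probe sets of the 37 genes and Dtna, the ones for which it was run. The alternatives for Lamb1, Dtna, the markers and these other probe sets were added after the data were seen.

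Signs turned only for genes that did not pass. Itga1 gave -0.25 with array weights, and Tln2 gave -0.0779 with array weights, -0.0204 with median centring and -0.10 without both arrays numbered 1. With the mean of all probe sets Itgav gave 0.11, Parva 0.0524 and Tns3 0.13. On leaving out single arrays Itga1 ranged from -0.43 to 0.53, Tln2 from -0.11 to 0.22, Tgfb1i1 from -0.20 to 0.0177 and Lamc1 from -0.0206 to 0.66. The marker Lum, near 0 throughout, gave 0.00285 with array weights and -0.0748 to 0.0341 on leaving out single arrays. The cause was not tested.

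Counts of the lists moved as follows. Of matrix ligands 1 was higher without probe sets of suffix _s_at, _x_at and _a_at, and 4 were lower without both arrays numbered 1 (4 to 10 over single arrays). Of other integrin subunits 0 were higher and 0 lower with the dim filter and without both arrays numbered 1 (0 to 1 each over single arrays). Of actomyosin genes 3 were lower with array weights or the replicate block, 2 with cyclic loess, quantile normalization, trend and robust variances or the dim filter, 4 with median centring and 0 without both arrays numbered 1 (0 to 2 over single arrays). Of dystroglycan genes 1 was higher with array weights, cyclic loess, trend and robust variances, the dim filter, the mean of all probe sets, quantile normalization, the replicate block and without both arrays numbered 1 (0 to 1 over single arrays).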
